A study of Homo sapiens with 11 samples.

Results

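The glypicans (GPC1 to GPC6) and the syndecans (SDC1 to SDC4) are families of membrane proteoglycans that carry heparan sulfate. Their RNA was followed in Caki-1-SR clone 1 cells treated with ODC or kept as CTRL. The 10 genes were found by their symbols among the 26485 symbols of both count tables, and all 10 were listed. They were chosen by family, with the values of the 24 h and 2 h comparisons of these libraries already known, so their differences between ODC and CTRL are a description. No p-value is printed for them, and where members are counted as called or past a threshold, the count describes where they fell among all genes and tests nothing about them. Of the 10, 7 held enough counts to be fitted at 24 h and the same 7 at 2 h (GPC1, GPC5, GPC6 and the 4 syndecans), and GPC2, GPC3 and GPC4 did not. GPC1 was the member that stood out: at 24 h it was 4.07-fold higher in ODC, while the control level itself was 3.8-fold lower at 24 h than at 2 h (3.15-fold without the CTRL library at 2 h that stood apart).

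Caki-1 is an established human clear cell renal cell carcinoma line derived from a skin metastasis, and Caki-1-SR is its subline that tolerates the receptor tyrosine kinase inhibitor sunitinib and is grown in medium with 1 µM of it. All groups share this line, which is 1 clone according to the methods, and no sunitinib-naive cells are among the 11 libraries. ODC cells received Rapta-C (a ruthenium compound) at 2 µM, erlotinib (which blocks the EGFR kinase) at 1 µM, metformin (an anti-diabetic drug) at 1 µM and parthenolide (a plant lactone) at 5 µM. CTRL cells received none of these drugs. The paper calls these controls untreated in one passage and sham-treated in others, so whether they received solvent is not settled here. There were 3 CTRL and 3 ODC libraries at 24 h (CTRL libraries 1, 3 and 5, ODC libraries 2, 4 and 6), and 2 CTRL and 3 ODC libraries at 2 h (CTRL libraries 1 and 2, ODC libraries 3, 4 and 5). Nothing in the labels says that the libraries of a group came from separate cultures, so the p-values given for other genes measure the spread between these libraries, which may be technical.

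Both families consist of a core protein with long sugar chains that are assembled in the Golgi and end up outside the cell, where the chains hold growth factors such as FGFs, hedgehog and Wnt proteins close to their receptors. Syndecans span the membrane and reach the cytoskeleton through a short tail, whereas glypicans are fixed to the outer leaflet by a GPI anchor. SDC1 is the syndecan typical of epithelia, SDC2 of mesenchymal cells, SDC3 of the nervous system, and SDC4 is widespread and sits in focal adhesions together with integrins. GPC1 is a broadly used co-receptor for FGF2, GPC3 restrains hedgehog signalling, and GPC5 and GPC6 are neighbours on the same chromosome. These roles are background, and only RNA was measured here.

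The libraries held between 17785229 and 20882856 counts at 24 h and between 25782895 and 31118349 at 2 h. Levels are given as CPM, the counts of a gene per 1000000 counts of its library after TMM scaling. The floor was taken as 3 counts, worth 0.144 to 0.169 CPM at 24 h before TMM scaling. The cells carried the renal and epithelial transcripts of their label, with PAX8 between 437 and 890.7 CPM and KRT8 between 394.9 and 979.1 CPM, but PAX2 did not pass 4 counts and CA9 did not pass 1 count in any library. CTRL library 1 at 2 h stood apart. It held 84 genes with at least 10 counts that had at most 1 count in each other library. There were 0 such genes in each of the other 10 libraries. All 8 of the fibroblast markers examined were above 3 counts in it, although COL1A1 and PDGFRB were so in every library. Of 6 endothelial markers, 4 were above 3 counts in it and 0 to 2 in the others, with sums of 1.31 CPM and 0.048 to 0.553 CPM. The 6 leukocyte markers summed to 16.4 CPM in it and to 5.81 to 16.7 CPM in the others. Differences and control levels at 2 h are therefore also given without CTRL library 1.

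The start regions of the 3 members whose ODC and CTRL libraries did not overlap at 24 h (GPC1, SDC1 and SDC4) are shown because their groups separated at that time, although GPC1 alone was called. Each run is the 250 bases before the RefSeq start in GRCh38.p14, read 5′ to 3′ on the strand of the gene, with GC boxes (GGGCGG on either strand) in capitals. The GPC1 run covers chr2:240435413-240435662 on the plus strand, the SDC1 run chr2:20225476-20225725 on the minus strand (the outer of its 2 annotated starts), and the SDC4 run chr20:45348425-45348674 on the minus strand.
GPC1: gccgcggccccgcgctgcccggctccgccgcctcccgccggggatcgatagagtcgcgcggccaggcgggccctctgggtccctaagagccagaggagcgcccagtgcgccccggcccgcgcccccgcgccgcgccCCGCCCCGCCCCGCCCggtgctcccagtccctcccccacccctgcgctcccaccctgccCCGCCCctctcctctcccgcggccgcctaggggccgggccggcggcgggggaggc
SDC1: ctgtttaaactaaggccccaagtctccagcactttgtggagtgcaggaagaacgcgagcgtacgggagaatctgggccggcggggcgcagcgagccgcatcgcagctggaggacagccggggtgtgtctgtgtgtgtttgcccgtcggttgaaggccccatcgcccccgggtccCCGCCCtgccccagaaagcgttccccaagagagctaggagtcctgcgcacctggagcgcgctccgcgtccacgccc
SDC4: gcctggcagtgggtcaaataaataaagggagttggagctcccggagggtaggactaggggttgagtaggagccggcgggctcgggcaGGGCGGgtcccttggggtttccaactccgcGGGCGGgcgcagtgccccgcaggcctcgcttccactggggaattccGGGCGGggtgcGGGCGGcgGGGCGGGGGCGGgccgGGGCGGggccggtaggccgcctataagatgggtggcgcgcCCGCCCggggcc

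Counted over the whole RefSeq window of 300 bases (250 before and 50 after the start), GPC1 had 4 GC boxes and 83.3% G and C, SDC4 had 8 GC boxes and 74% G and C, and each of the 2 SDC1 windows had 1 GC box. Among all 35116 windows, 45% held a GC box and the median G and C content was 58.7%. SDC3, with a GC content of 84%, also had 6 GC boxes, and GPC2 and GPC5 had 3 each, so GC boxes were also found in members whose groups overlapped or that were too low to fit. No window of GPC1, SDC1 or SDC4 held the AP-1 letters (TGANTCA, 7.71% of all windows), the antioxidant response element core (TGACNNNGC, 13.3%), the hypoxia response element core (ACGTG, 21.4%) or TATAAA (11.5%), searched on both strands. The GPC6 window differed from the others with 40% G and C, no GC box, and 1 match each to the antioxidant and hypoxia letters. It also held 1 match to TATAAA, as did the GPC5 window. A match is a description of letters only, and adjoining GC boxes can share bases, as in the GPC1 run. A window was found for 8 of the 10 members, and GPC3 and SDC2 had none.

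At 24 h, GPC1 (GENCODE release 44, hg38, chromosome 2, 240435663 to 240468076, plus strand, 9 exons) was at 7.16, 6.16 and 7.63 CPM in CTRL libraries 1, 3 and 5, from 149, 118 and 138 counts. In ODC libraries 2, 4 and 6 it was at 22.9, 23.3 and 39.1 CPM, from 466, 432 and 814 counts. Every ODC library was thus well above every CTRL library, and ODC library 6 was well above the other two. The means were 6.98 ± 0.754 CPM for CTRL and 28.4 ± 9.23 CPM for ODC (SD, n = 3 each), a log2 fold change of 2.03 with a standard error of 0.23. GPC1 was the 1 member called, that is, at least 2-fold different with an adjusted p under 0.05 over all genes in the edgeR quasi-likelihood test. Higher calls of this kind made up 0.15% of the 12689 genes tested, and the looser call of 2-fold with an unadjusted p under 0.05 made up 1.77%. Nothing is read from these shares, since GPC1 was known from this contrast. As RNA was taken from whole cultures, more RNA per cell and a larger share of cells with the RNA cannot be told apart.

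The GPC1 call depended on which library was left out. It was kept without ODC library 4 and without ODC library 6, and was lost without CTRL library 1, CTRL library 3, CTRL library 5 or ODC library 2, when the log2 fold change was 2.04, 1.94, 2.09 and 2.16. Over all 14 alternatives the log2 fold change lay between 1.73 and 2.16, and the call was made in 10 of them. Some of these 10 called many more genes in either direction than the 0.165% of the main fit. The shares were 1.14% with DESeq2, 1.47% with the likelihood ratio test and 1.39% with adjacent library numbers taken as pairs. The antisense gene GPC1-AS1 overlaps GPC1 in the annotation and had no row in the count tables. The library kit marks strand, but the strand setting of the counting is not given in the sources used here, so reads of both genes cannot be told apart.

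**Figure D1:**
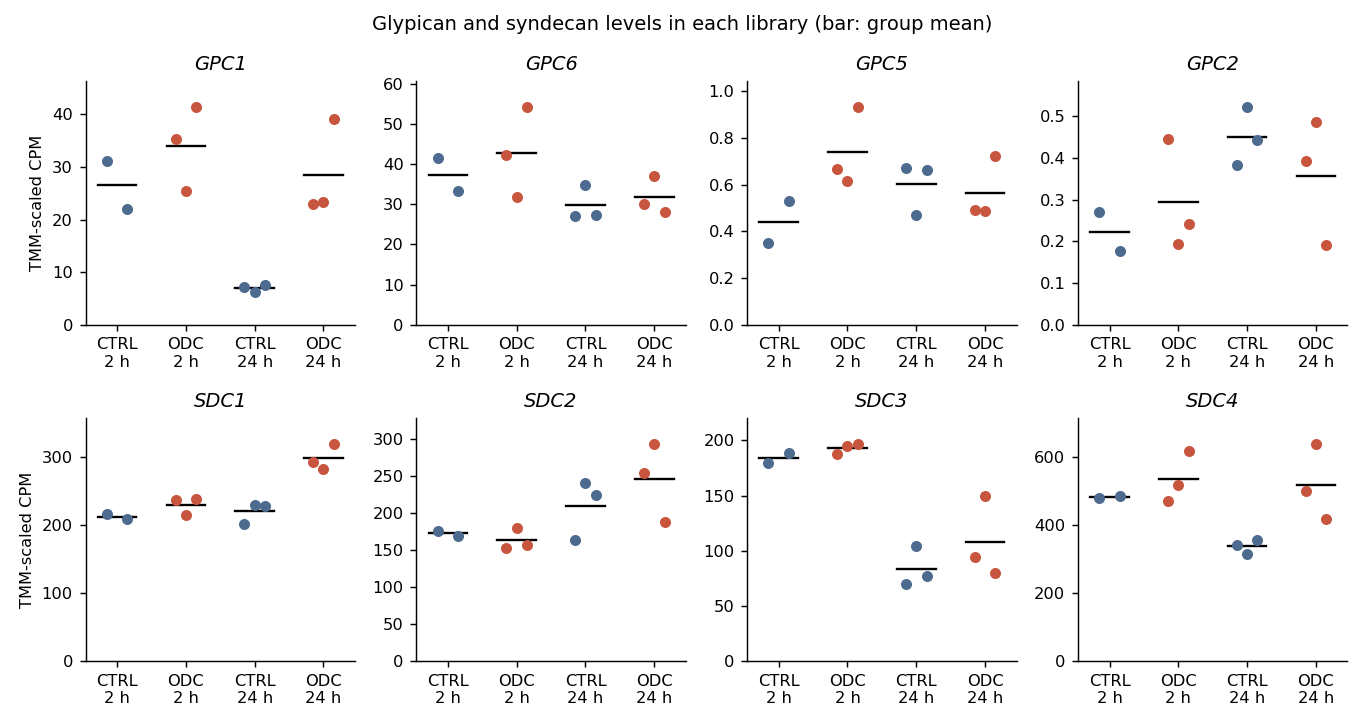
Level of 8 glypicans and syndecans in each library, in TMM-scaled CPM on linear axes that start at 0 (points: libraries, blue CTRL, red ODC, bar: group mean). GPC1 was at 6.16 to 7.63 CPM in CTRL at 24 h and at 22 CPM or more in every other group, while GPC6, SDC2 and SDC3 overlapped between CTRL and ODC at 24 h.

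The other glypicans did not follow GPC1 at 24 h. GPC6, which promotes hedgehog signalling in bone growth, was at 27.1, 34.7 and 27.3 CPM in CTRL libraries 1, 3 and 5 and at 30.1, 37.1 and 28.2 CPM in ODC libraries 2, 4 and 6. The groups overlapped, with a log2 fold change of 0.10 ± 0.15 (SE). GPC5, a glypican of low level here, was at 9 to 14 counts in CTRL and 9 to 15 counts in ODC, with a log2 fold change of -0.08 ± 0.35 (SE). The groups overlapped. GPC2, a glypican of developing neurons, had 8 to 10 counts in CTRL and 4 to 9 counts in ODC at 24 h.

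GPC3 and GPC4 were at or near 0. GPC3, known as a surface antigen of liver cancer, had 0 counts in all 6 libraries at 24 h and 1 count in CTRL library 1 at 2 h. The 0 counts allow up to 0.144 to 0.169 CPM in a library before TMM scaling. GPC4, a glypican of developing kidney and brain, had 1 count in ODC library 2 at 24 h, 28 counts in CTRL library 1 at 2 h and 0 counts in the other 9 libraries. GPC4 was thus seen almost entirely in the library that stood apart. In that library COL3A1 had 1081 counts, COL1A2 971, DCN 73 and LUM 65, all fibroblast transcripts. The 6 fibroblast markers other than COL1A1 and PDGFRB, which these cells express throughout, summed to 85.8 CPM there and to between 0.104 and 1.1 CPM in the other 10 libraries. All 6 were above 3 counts in that library, and between 0 and 4 of them in the others. CTRL library 1 at 2 h also held counts for 16840 genes, against 15366 to 15973 in the others. The part of the fibroblast transcripts in the GPC4 counts was not tested.

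**Figure D2:**
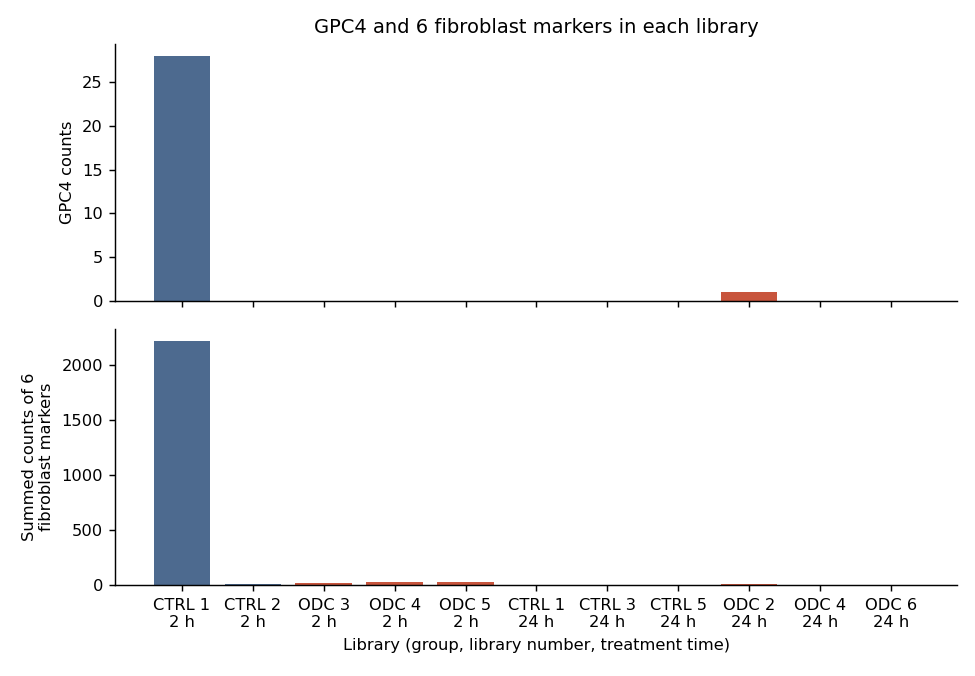
Counts of GPC4 (top) and summed counts of 6 fibroblast markers, COL1A2, COL3A1, PDGFRA, DCN, LUM and FAP (bottom), in each of the 11 libraries on linear axes (blue CTRL, red ODC). CTRL library 1 at 2 h held 28 GPC4 counts and 2219 marker counts, and no other library held more than 1 GPC4 count or 34 marker counts.

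Among the syndecans at 24 h, SDC1 and SDC4 were higher in every ODC library than in any CTRL library. SDC1 (chromosome 2, 20200797 to 20225433, minus strand) was at 202, 228.9 and 228.3 CPM in CTRL libraries 1, 3 and 5 and at 292.4, 281.4 and 318.8 CPM in ODC libraries 2, 4 and 6. The means were 219.7 ± 15.4 CPM and 297.5 ± 19.2 CPM (SD, n = 3 each), with a log2 fold change of 0.44 ± 0.096 (SE), a fold of 1.35. SDC4 (chromosome 20, 45325288 to 45348424, minus strand) was at 342.1, 314.6 and 356.3 CPM in CTRL and at 501.3, 639.2 and 417.5 CPM in ODC. Its means were 337.7 ± 21.2 CPM and 519.4 ± 112 CPM (SD, n = 3 each), with a log2 fold change of 0.62 ± 0.15 (SE), a fold of 1.54. The ODC libraries differed more among themselves in SDC4 than in SDC1. Neither syndecan reached a 2-fold difference or was called.

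SDC2 and SDC3 overlapped between the groups at 24 h. SDC2 (chromosome 8) was at 163.2, 239.6 and 224.6 CPM in CTRL and 253.7, 293 and 188.4 CPM in ODC, with a log2 fold change of 0.23 ± 0.19 (SE). SDC3 (chromosome 1) was at 70, 104.6 and 77.5 CPM in CTRL and 94.4, 149.5 and 79.8 CPM in ODC, with a log2 fold change of 0.36 ± 0.25 (SE). In both genes ODC library 6 was the lowest of the ODC libraries, whereas in GPC1 and SDC1 it was the highest. Leaving out 1 library at a time moved SDC2 between 0.07 and 0.39 and SDC3 between 0.05 and 0.55 on the log2 scale.

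Over the 7 members fitted at 24 h, 6 had a log2 fold change above 0 and 1 below, with a median of 0.36, against a median of 0.00089 over all 12689 genes. The libraries did not overlap, with ODC higher, in 3 of the 7, and such genes made up 9.41% of all genes tested. Beside these members, the epithelial and mesenchymal filament transcripts of the cells were lower in ODC at 24 h without overlap, with KRT8 at 527.1 to 835.6 CPM in CTRL and 394.9 to 499.3 CPM in ODC, KRT18 at 490.5 to 670.7 and 307.6 to 398.8 CPM, and VIM at 3140.9 to 3539.3 and 2450.8 to 2948.7 CPM, and their part in the result was not tested. By adjusted p at any fold, 1 member passed, where 0.189% of all genes did, and DESeq2 and the edgeR likelihood ratio test each passed 3 members, where 2.98% and 3.16% of all genes passed. These are counts over members that had passed the filter on low counts and were picked with this contrast known, and they support nothing on their own.

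The 6 glypicans together summed to 35.3, 41.8 and 36 CPM in CTRL libraries 1, 3 and 5 and to 54, 61.4 and 68.3 CPM in ODC libraries 2, 4 and 6 at 24 h. GPC1 made up 14.7% to 21.2% of this sum in CTRL and 38% to 57.3% in ODC. The ratio of GPC1 to GPC6 in CPM was 0.264, 0.177 and 0.28 in CTRL and 0.76, 0.63 and 1.38 in ODC. The 4 syndecans summed to 777.3, 887.8 and 886.6 CPM in CTRL and to 1141.85, 1363.18 and 1004.53 CPM in ODC. SDC4 made up 35.4% to 44% of the syndecan sum in CTRL and 41.6% to 46.9% in ODC, so the composition of the syndecans overlapped between the groups where that of the glypicans did not.

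At 2 h, GPC1 was at 31.1 and 22 CPM in CTRL libraries 1 and 2 and at 35.4, 25.4 and 41.4 CPM in ODC libraries 3, 4 and 5. The groups overlapped. The log2 fold change was 0.36 ± 0.22 (SE). It was 0.63 without CTRL library 1, which stood apart, and 0.15 without CTRL library 2, so the size rested on which control was kept. GPC6 showed the same spread, with 41.5 and 33.2 CPM in CTRL and 42.2, 31.7 and 54.2 CPM in ODC. Its log2 fold change was 0.19 ± 0.21 (SE), and 0.36 without CTRL library 1. In both glypicans ODC library 5 was the highest and ODC library 4 the lowest of the ODC libraries.

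GPC5 was the 1 member whose libraries did not overlap at 2 h, with 9 and 15 counts in CTRL and 21, 19 and 27 counts in ODC. Such genes, with ODC higher, made up 7.91% of the 13332 genes tested at 2 h. The log2 fold change was 0.73 ± 0.42 (SE), and 0.47 without CTRL library 1. GPC2 had 7 and 5 counts in CTRL and 14, 6 and 7 in ODC. At counts this low, differences of a few reads move these values.

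The syndecans were close to their control level at 2 h. SDC1 was at 216.3 and 208 CPM in CTRL and 237.1, 214.1 and 237.4 CPM in ODC, a log2 fold change of 0.11 ± 0.089 (SE). SDC4 was at 481.5 and 485.1 CPM in CTRL and 471.2, 518.8 and 617.2 CPM in ODC, a log2 fold change of 0.15 ± 0.12 (SE). SDC2 and SDC3 had log2 fold changes of -0.08 ± 0.098 and 0.07 ± 0.083 (SE). The groups overlapped in all 4, and without CTRL library 1 the log2 fold changes ran from -0.05 in SDC2 to 0.14 in SDC1 and SDC4.

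No member was called at 2 h by the edgeR quasi-likelihood test, by its likelihood ratio test or by DESeq2, and an unadjusted p under 0.05 was found for 0 of the 7. Among all genes tested, the edgeR quasi-likelihood test called 0 (0%), and the unadjusted p was under 0.05 for 2.34%. The median log2 fold change of the 7 members was 0.15 at 2 h, with 6 above 0, against -0.006 over all genes. Without CTRL library 1 the median of these 7 was 0.14, with 6 above 0, against 0.011 over all genes.

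**Figure D3:**
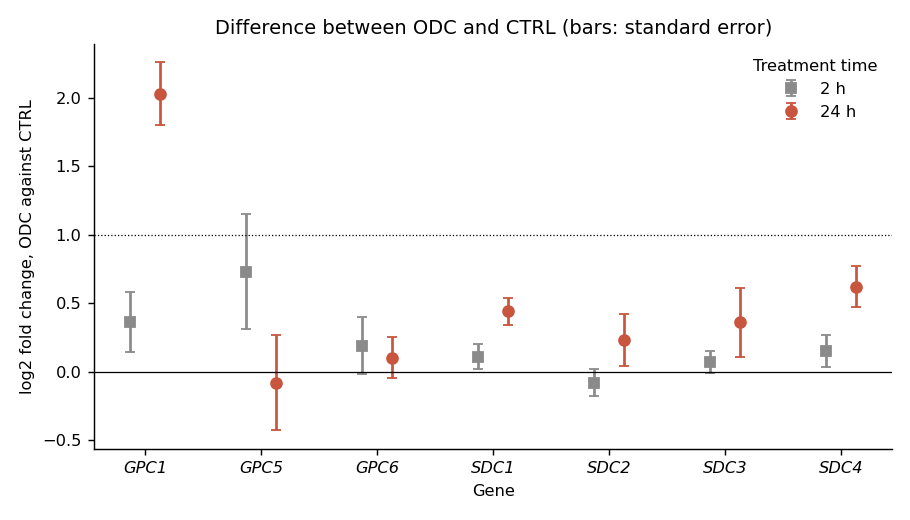
Log2 fold change of ODC against CTRL at 2 h (grey squares) and at 24 h (red circles) for the 7 members that could be fitted, with bars of 1 standard error and a dotted line at 2-fold. GPC1 at 24 h, with 2.03, lies above the line, and all others lie below it.

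Whether the difference between ODC and CTRL itself changed from 2 h to 24 h was examined in a joint fit of all 11 libraries. For GPC1 the log2 fold change was larger at 24 h by 1.65 ± 0.36 (SE), a ratio of 3.14. For SDC4 it was larger by 0.45 ± 0.21 and for SDC1 by 0.31 ± 0.13, and for GPC6 the value was -0.11 ± 0.28. No member was called by the edgeR quasi-likelihood test, where 0.015% of 13333 genes were (at least 2-fold, adjusted p under 0.05), and 2 of the 7 members had an unadjusted p under 0.05, where 5.93% of all genes did. DESeq2 and the edgeR likelihood ratio test each called 1 member, GPC1, with values of 1.66 and 1.65, where they called 0.21% and 0.255% of all genes. Without CTRL library 1 at 2 h the values were 1.39 for GPC1, 0.47 for SDC4, 0.29 for SDC1 and -0.27 for GPC6, and no member was called.

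The controls themselves differed between the times. GPC1 had a mean of 26.5 CPM in the 2 CTRL libraries at 2 h and 6.98 CPM in the 3 at 24 h, 3.8-fold lower, with no overlap. In ODC at 24 h the mean of 28.4 CPM was 1.07 times the CTRL mean at 2 h. All 5 libraries at 2 h lay between 22 and 41.4 CPM. With CTRL library 2 alone, the control level at 2 h was 3.15 times the CTRL mean at 24 h, and the ODC mean at 24 h was 1.29 times the level of CTRL library 2. The 3 ODC libraries at 24 h lay within the range of the 2 h libraries, and the 3 CTRL libraries at 24 h lay below it. As the 2 times were scaled separately, these levels cannot show which group moved. SDC3 had 184.2 CPM in CTRL at 2 h and 84.1 CPM at 24 h, 2.19-fold lower, also without overlap. The ODC mean of SDC3 at 24 h, 107.9 CPM, was 0.586 times the CTRL mean at 2 h. Against CTRL library 2 alone the SDC3 values were 2.25-fold and 0.572 times.

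SDC4 was 1.43-fold lower in CTRL at 24 h than at 2 h (337.7 against 483.3 CPM) with no overlap, and its ODC mean at 24 h was 1.07 times the CTRL mean at 2 h (1.44-fold and 1.07 times against CTRL library 2 alone). GPC6, GPC5, SDC1 and SDC2 overlapped between the CTRL libraries of the 2 times. GPC2 went the other way at very low counts, with a CTRL mean of 0.449 CPM at 24 h and 0.224 CPM at 2 h and no overlap, from 8 to 10 and 5 to 7 counts. GPC1 and SDC3 were the 2 members at least 2-fold lower without overlap, as were 6.61% of 13333 genes. Each time has its own count table, libraries named for a different month and its own TMM scaling. The treatment time and whatever else differed between the 2 sets of libraries therefore cannot be told apart. These are levels set across tables with no test.

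Levels of different members were compared per kilobase of transcript, using the length of the canonical transcript in GENCODE release 44. In CTRL at 24 h the order was SDC4 with 129.2 ± 8.11 CPM per kb (SD, n = 3), SDC1 with 69.4 ± 4.86, SDC2 with 63.2 ± 12.2, SDC3 with 16 ± 3.47, GPC6 with 4.17 ± 0.609 and GPC1 with 1.88 ± 0.203. GPC5 with 0.205 and GPC2 with 0.177 CPM per kb followed. The ranges of SDC1 and SDC2 overlapped, as did those of GPC5 and GPC2, and the other neighbours down to GPC2 did not. The syndecans thus lay above all glypicans in RNA per length.

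In ODC at 24 h, GPC1 with 7.65 ± 2.48 CPM per kb (SD, n = 3) lay above GPC6 with 4.47 ± 0.652, and the ranges did not overlap. GPC1 also had the higher mean of the pair at 2 h, with 7.14 against 5.25 CPM per kb in CTRL (5.93 against 4.67 in CTRL library 2 alone) and 9.17 against 5.99 in ODC, where the ODC ranges overlapped. With the coding length in place of the transcript length, GPC6 was at 19.1 and GPC1 at 17 CPM per kb in ODC at 24 h with overlapping ranges, and SDC2 ranked above SDC1. The order of these 2 pairs therefore depended on the length used.

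**Figure D4:**
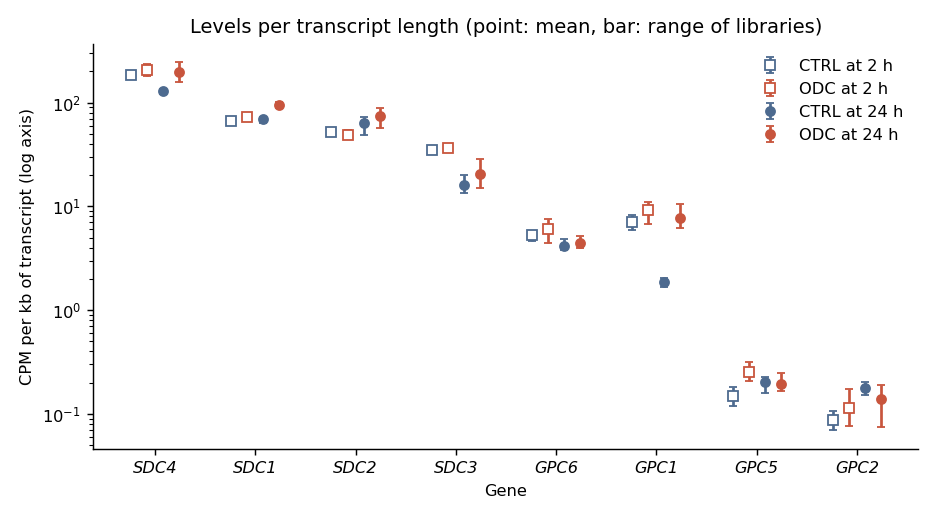
Level per kilobase of transcript of 8 members in the 4 groups, on a log axis (points: means, bars: lowest to highest library, open squares 2 h, filled circles 24 h, blue CTRL, red ODC), with the 2 times scaled separately. The syndecans lie above the glypicans, and GPC1 in CTRL at 24 h, with 1.88 CPM per kb, is the group that lies below GPC6 in CTRL, with 4.17.

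The genes whose level followed GPC1 most closely were sought over the 11 libraries, after the mean of each time was taken off the log2 CPM, among 12603 genes tested at both times. The highest Pearson correlations were those of ME1 (malic enzyme, a source of NADPH) with 0.959, TMEM45A with 0.957, EBI3 (a cytokine subunit) with 0.956, BCAP31 (an endoplasmic reticulum protein) with 0.955, and SDC1 with 0.952. SDC1 was thus rank 5 of all genes, although its own log2 fold change at 24 h was 0.44. SDC4 had a correlation of 0.71 at rank 560, GPC6 of 0.28, SDC3 of 0.27, GPC5 of 0.15 and SDC2 of 0.14. The points share treatment, depth and count table, and the correlations are descriptions over 11 libraries.

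The other genes of the pathway were taken from 14 lists with 179 genes, of which 128 were fitted at 24 h and 133 at 2 h. At 24 h the log2 fold change was above 0 in 92 and below 0 in 36, and its median was 0.13. Over all 12689 genes tested it was above 0 in 6363 and below 0 in 6326, with a median of 0.00089. By adjusted p under 0.05 in the main edgeR quasi-likelihood fit, 0 of the 128 passed, and 29 had an unadjusted p under 0.05, 23 higher and 6 lower. That is 22.7% of the 128, where 12.2% of all genes had one, 913 of them higher and 640 lower. Other tests passed more of them by adjusted p, 5 with DESeq2 and 6 with the edgeR likelihood ratio test, where 2.98% and 3.16% of all genes passed. With adjacent library numbers taken as pairs in a replicate block, 18 of the 128 passed (15 higher, 3 lower), where 5.41% of all genes did, and the labels do not say that these libraries were paired. None of the differences below passed the adjusted threshold in the main edgeR quasi-likelihood fit. The adjusted p of each in that fit is given with its range over the alternatives.

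Among the 14 lists, that of FGF ligands and receptors had the largest share of low p-values at 24 h. In it, 6 of 9 genes had an unadjusted edgeR p under 0.05 (4 higher, 2 lower), where 12.2% of all genes tested had one. Its median log2 fold change was 0.47. This list was singled out after its values were seen, so nothing is read from its share. FGF2, a growth factor that binds heparan sulfate, was at 69.6 to 79 CPM in CTRL and 104.1 to 114.9 CPM in ODC, a log2 fold change of 0.55 ± 0.095 (SE, edgeR adjusted p = 0.0859, range 0.00038 to 0.379). FGFR3, a receptor for FGFs, was at 3.31 to 5.58 CPM in CTRL and 9.09 to 14.1 CPM in ODC, a log2 fold change of 1.26 ± 0.25 (SE, edgeR adjusted p = 0.108, range 0.000608 to 0.379). FGFRL1, an FGF receptor without a kinase domain, had a log2 fold change of 0.47 ± 0.13 (SE, edgeR adjusted p = 0.197, range 0.0248 to 0.614). FGFBP1, a carrier that frees FGFs from the matrix, went the other way with -2.00 ± 0.63 (SE, edgeR adjusted p = 0.252, range 0.0364 to 0.508). Its CTRL levels were 21.6, 119.5 and 23.9 CPM and its ODC levels 13.6 to 14 CPM, so CTRL library 3 set most of the size.

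Of the 8 other heparan sulfate proteoglycans fitted at 24 h, 4 were above and 4 below a log2 fold change of 0, and 3 higher and 1 lower had an unadjusted p under 0.05. HSPG2, which encodes the basement membrane proteoglycan perlecan, was at 180.7, 309.8 and 252.3 CPM in CTRL and 464.8, 816.7 and 406.1 CPM in ODC at 24 h. Its log2 fold change was 1.18 ± 0.29 (SE, edgeR adjusted p = 0.161, range 0.00139 to 0.537). AGRN, which encodes agrin, was at 286.1 to 437.5 CPM in CTRL and 465.1 to 738 CPM in ODC, with 0.58 ± 0.22 (SE, edgeR adjusted p = 0.326, range 0.0426 to 0.775). HS6ST1, a sulfotransferase of heparan chains, had a log2 fold change of 0.56 ± 0.13 (SE, edgeR adjusted p = 0.143, range 0.0221 to 0.56). CHPF, a polymerising factor of chondroitin chains, had 0.82 ± 0.19 (SE, edgeR adjusted p = 0.135, range 0.00733 to 0.514). SLC26A11, a sulfate transporter, had 0.52 ± 0.13 (SE, edgeR adjusted p = 0.177, range 0.0522 to 0.634). In each of these 5 genes the libraries of the groups did not overlap, with ODC higher, as in 9.41% of all genes tested. HSPG2, HS6ST1, CHPF and SLC26A11 were named for their small p at 24 h, so nothing is read from this.

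Of the 16 genes for sulfation and epimerisation of heparan chains, 6 could be fitted at 24 h, and 7 of the 16 did not pass 3 counts in any library. Of the 6 fitted, 5 were above and 1 below a log2 fold change of 0, with a median of 0.21. The linker synthesis list (6 fitted, median 0.1, 0 with an unadjusted p under 0.05) and the syndecan cytoplasmic partners (11 fitted, median 0.015, 1) lay close to all genes. The 8 genes for lysosomal breakdown of heparan chains had a median of 0.23, with 7 higher and 2 at an unadjusted p under 0.05. The 28 fitted genes for GPI anchor assembly, which glypicans need and syndecans do not, had a median of 0.11, with 18 higher, 10 lower and 4 at an unadjusted p under 0.05.

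Genes that cleave or release core proteins had a median of 0.31 over 12 fitted genes, with 10 higher and 2 lower. ADAM17, a protease that sheds syndecans, was at 89.4 to 96.8 CPM in CTRL and 108.2 to 126.6 CPM in ODC at 24 h, with 0.32 ± 0.099 (SE, edgeR adjusted p = 0.256, range 0.0706 to 0.739). PCSK7, a convertase of the family that cleaves glypicans, was at 47.8 to 54.6 CPM in CTRL and 60.9 to 69.1 CPM in ODC, with 0.31 ± 0.1 (SE, edgeR adjusted p = 0.264, range 0.0659 to 0.743). The remaining lists at 24 h had medians of 0.11 (heparan chain polymerisation, 4 fitted), 0.15 (sugar nucleotide and sulfate donor supply, 10), 0.18 (hedgehog components, 9), 0.14 (chondroitin and dermatan synthesis, 14), 0.27 (chondroitin sulfate proteoglycans, 2), 0.12 (other heparan sulfate proteoglycans, 8) and 0.41 (extracellular editing, 1).

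**Figure D5:**
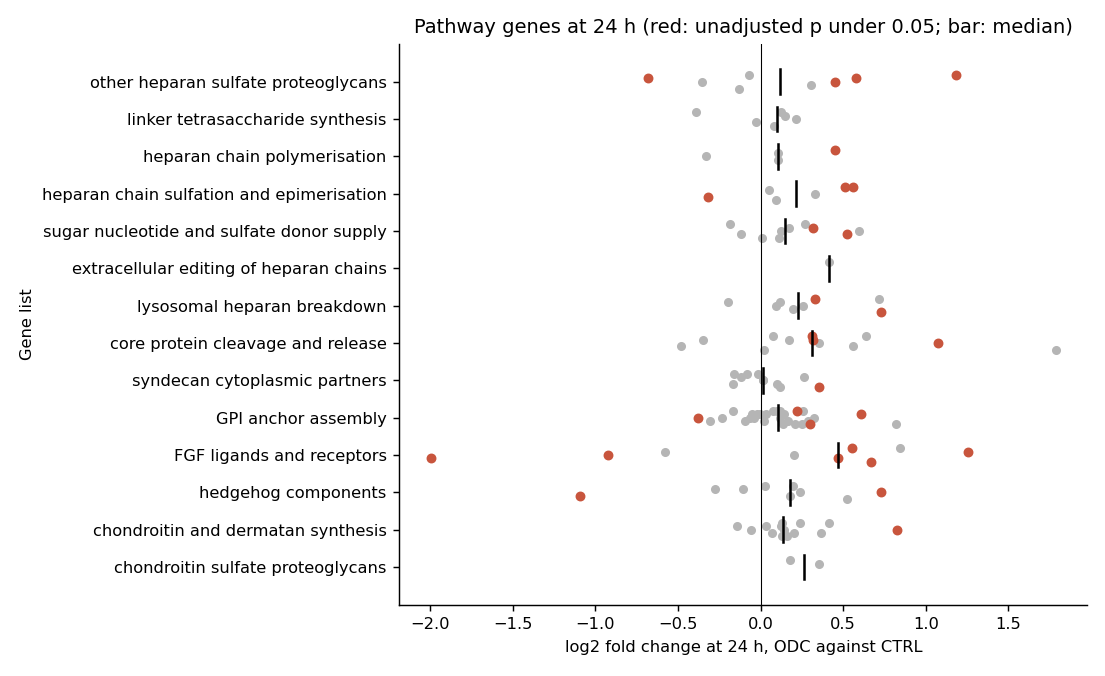
Log2 fold change of ODC against CTRL at 24 h for the fitted genes of the 14 lists (points: genes, red where the unadjusted edgeR p was under 0.05, bar: median of the list). In the list of FGF ligands and receptors 6 of 9 genes are red, where 12.2% of all genes tested had such a p. That list is named after its values were seen. No gene of any list had an adjusted p under 0.05 in this main fit.

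At 2 h the log2 fold change was above 0 in 85 of the 133 pathway genes and below 0 in 48. Its median was 0.059, and the list medians lay between -0.066 and 0.13. Over all 13332 genes tested it was above 0 in 6427 and below 0 in 6905, with a median of -0.006. No pathway gene had an adjusted p under 0.05 in the edgeR quasi-likelihood test or DESeq2. In the quasi-likelihood test 7 (5.26%) had an unadjusted p under 0.05, where 2.34% of all genes had one. The count by adjusted p was also 0 without CTRL library 1, and it was 4 without CTRL library 2. These 4 genes, LUM, BGN, DCN and TIMP3, were all lower in ODC and are named after their values were seen. They were then compared with CTRL library 1 alone, which held the fibroblast transcripts, so nothing is read from their count.

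The 5 pathway genes with the smallest p at 2 h all had an edgeR adjusted p of 1. PIGQ, an enzyme of GPI anchor synthesis, was at 27.7 and 26.7 CPM in CTRL and 35.2, 33.5 and 35.5 CPM in ODC, with a log2 fold change of 0.35, and 0.38 without CTRL library 1. GIPC1, a partner of the SDC4 tail, was at 241.4 and 241.8 CPM in CTRL and 291.8, 287.3 and 292.9 CPM in ODC, with 0.27 both with and without that library. AGRN had 0.33, and 0.35 without it. SPOCK2, a testican, stayed below 1 CPM in every library and had -2.40, and -1.79 without it. BGN, the matrix proteoglycan biglycan, was at 3.29 CPM in CTRL library 1 and 0.141 CPM in CTRL library 2, and its value turned from -2.56 to 0.99 without CTRL library 1.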

How the data were processed

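The authors prepared stranded mRNA libraries of Caki-1-SR cells and sequenced single ends. They aligned the reads to hg38 with STAR and counted them per gene with HTSeq (2.7.0f and 0.9.1 in the submitters' processing notes). The deposited values are raw counts in 2 tables of 26485 symbols, 1 for each time. Strand setting and annotation release of the counting are not given in the sources used here.

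Groups were compared at each time with the quasi-likelihood test of edgeR 4.0.16 (R 4.3.3, earlier method), two-sided, with TMM scaling, filterByExpr (minimum count 10, minimum total 15) and Benjamini-Hochberg adjustment over all genes tested. A call needed a 2-fold difference and an adjusted p under 0.05. Standard errors are the log2 fold change divided by the square root of F. The difference between times came from a joint fit of 11 libraries. Correlations used log2 CPM with 0.1 CPM added. Alternatives were RLE or library size scaling, other filters, DESeq2 1.42.0, the likelihood ratio test, the joint fit, a replicate block and each library left out. Replicates differed by more than sampling noise (chi-square 18.7 to 58 per gene). Floors cover counting error only. Scripts were tested on simulated data.

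The members and the gene lists were chosen with earlier results of these data known. Named were all members, the 10 pathway genes with the smallest p at 24 h, the 5 at 2 h, and the 5 genes most correlated with GPC1. Motifs were searched on both strands of RefSeq windows. Figures were drawn with matplotlib 3.10.9.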

Additional observations from a re-analysis of the deposited data

How the results depend on the processing

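Of 375 recomputed values, 348 kept their direction and their side of the threshold, 13 moved, 8 changed sign, 4 lost a call and 2 gained a call. The count of members called at 24 h ran from 0 to 1 with each library left out in turn, and was 1 under the other alternatives. The pathway genes with an adjusted p under 0.05 at 24 h numbered 0 in the main quasi-likelihood fit, 5 with DESeq2 and 6 with the likelihood ratio test. They numbered 2 with the joint fit and 18 with the replicate block, which also used the quasi-likelihood test. At 2 h they numbered 0 to 4 with each library left out. For the difference between the times, DESeq2 called 1 member and the likelihood ratio test called 1. With each library left out in turn, the log2 fold change of GPC5 at 24 h ran from -0.30 to 0.0104, and that of GPC6 between -0.0293 and 0.23 at 24 h and between -0.0152 and 0.37 at 2 h. The difference between the times ran from -0.28 to 0.0948 for GPC6 and from -0.0313 to 0.46 for SDC3. The cause of these turns was not tested.

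No replicate number is common to CTRL and ODC in the labels. Within pairs of adjacent library numbers at 24 h the correlations of deviations were 0.2, 0.58 and 0.45. In the other pairings of a CTRL with an ODC library they ran from -0.55 to 0.23. With these adjacent pairs as a replicate block, 18 pathway genes had an adjusted p under 0.05, beside 5.41% of all genes. GPC1 was called with 1.99 in this block, where 1.39% of all genes were called. Depth limits what can be said of GPC2, GPC3, GPC4 and GPC5, all at or under 28 counts in every library.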
